A study of Rattus norvegicus with 35 samples.

Results

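Livers of male rats given ketoconazole at 100 mg/kg per day for 14 days (high dose, 3 samples) were set against livers of rats given the vehicle alone for 14 days (control, 2 samples). These are 5 of the 35 small RNA libraries of a rat study with 12 groups, and they were taken by dose and day from the labels, so no measured value chose them. All rats were Sprague-Dawley animals, 6 weeks old, that took ketoconazole or 0.5% methylcellulose by mouth, and each liver was collected 24 h after the last dose. The study also had doses of 10 and 30 mg/kg (low and middle) and 3 and 7 days of dosing, each day with its own vehicle group. An azole antifungal, ketoconazole acts on a fungal cytochrome P450 that makes sterols, also inhibits cytochrome P450 enzymes of mammals, and has liver injury among its known side effects. The series asks which microRNAs of the liver move with the drug. The labels number the replicates and do not say that each came from its own rat. The p-values below thus measure the spread between replicate libraries, estimated over all 35 libraries, and that spread may be technical.

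MicroRNAs (miRNAs) are short RNAs cut from a hairpin by the nucleases Drosha and Dicer. The hairpin has a 5p and a 3p arm, and usually 1 of them, the guide strand, is kept in an Argonaute protein while the other, the passenger strand, is mostly lost. The seed, bases 2 to 8 from the 5′ end, pairs with messenger RNAs and lowers their output, so miRNAs with the same seed are grouped as a family. Liver is known for miR-122, the leading miRNA of hepatocytes, and for miR-192 and miR-194.

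The sequences that the results turn on are given 5′ to 3′ as RefSeq holds them for the GRCr8 rat assembly, with the seed in capitals. Mature sequences were matched by name for 292 of the 328 miRNAs tested. The first set holds some of the leading rises for which a sequence was matched. It also holds miR-22-3p, the partner of miR-22-5p, and miR-221-3p, which has the seed of miR-222-3p.
miR-128-3p: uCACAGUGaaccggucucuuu
miR-22-5p: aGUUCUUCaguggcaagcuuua
miR-22-3p: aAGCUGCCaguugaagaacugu
miR-671: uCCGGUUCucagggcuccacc
miR-322-3p: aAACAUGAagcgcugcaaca
miR-28-3p: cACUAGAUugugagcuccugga
miR-191a-5p: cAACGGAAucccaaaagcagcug
miR-222-3p: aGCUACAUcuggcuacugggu
miR-221-3p: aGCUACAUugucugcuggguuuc

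The second set holds members of seed families with several calls in 1 direction, the miR-30 guide strands upward and the miR-15/16 family downward, in which miR-195-5p was not called.
miR-30a-5p: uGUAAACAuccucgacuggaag
miR-30c-5p: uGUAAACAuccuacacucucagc
miR-30e-5p: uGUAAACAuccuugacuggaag
miR-16-5p: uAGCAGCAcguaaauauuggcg
miR-15b-5p: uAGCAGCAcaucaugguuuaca
miR-195-5p: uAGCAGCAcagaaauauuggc
miR-322-5p: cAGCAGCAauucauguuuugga
miR-497-5p: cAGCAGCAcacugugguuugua

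The third set holds miRNAs with an identical seed and opposite changes, followed by the arms of miR-145 and by miR-100-5p.
miR-92a-3p: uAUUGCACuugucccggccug
miR-92b-3p: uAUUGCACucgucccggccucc
miR-363-3p: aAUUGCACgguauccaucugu
miR-351-5p: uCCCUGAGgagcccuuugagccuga
miR-125b-5p: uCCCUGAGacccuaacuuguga
miR-145-5p: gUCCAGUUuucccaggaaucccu
miR-145-3p: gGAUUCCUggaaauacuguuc
miR-100-5p: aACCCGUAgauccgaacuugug

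The high-dose libraries held 3922561, 2814983 and 2665943 miRNA counts and the control libraries 3177390 and 4367572. Levels below are in CPM, counts set relative to the library's total after TMM scaling, and fold changes are high dose over control on the log2 scale with their standard errors (SE). The 35 libraries fell into separate sets on their first principal component, which held 46.2% of the variance. The 21 libraries of the middle and high doses and of the low dose on day 7 lay between 4.24 and 6.47, with the high dose of day 14 at 6.25 to 6.35. The other 14, which were all controls and the low-dose livers of days 3 and 14, lay between -14.49 and -4.32, with the controls of day 14 at -7.81 and -7.06. The low dose was thus on the side of the high dose on day 7 and on the side of the controls on days 3 and 14. The labels name no batch, and no library set holds both groups compared here, so the drug and whatever else separates the sets cannot be told apart.

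Hepatocyte miRNAs were abundant in all 5 libraries. The guide strand miR-192-5p held 16.85, 17.0 and 16.66% of the counts at the high dose and 20.19 and 19.91% in controls. Muscle miR-1-3p, miR-206-3p and miR-208a-3p and brain miR-124-3p were at 0 in all 5 libraries, out of at least 2665943 counts in each. Other members of the muscle, pancreas and brain list were present, and the list summed to 267 to 416 CPM at the high dose, against 299 and 342 CPM in controls, mostly from miR-375-3p. In whole liver, fewer cells of a type and less RNA per cell cannot be told apart.

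Of the 328 miRNAs tested, 116 (35.4%) had an adjusted p under 0.05 (edgeR quasi-likelihood test, Benjamini-Hochberg). The high dose had 72 higher (22.0% of those tested) and 44 lower (13.4%), and the median over all tested was 0.03 on the log2 scale. The rises were the larger changes: 40 were at least 2-fold and 12 at least 4-fold, against 13 and 2 of the falls. With library size alone as the scaling the split was 57 higher and 81 lower, because the median of all tested moved to -0.15, so small falls and small rises depend on the scaling. With DESeq2's size factors it was 65 higher and 57 lower, and with a stricter filter 58 higher and 59 lower. Both counts also moved with single libraries. Without high-dose replicate 1 there were 56 higher and 45 lower, and without high-dose replicate 2 there were 57 and 50. Leaving out high-dose replicate 3 gave 69 higher and 28 lower. The median over all tested was 0.14 without control replicate 1 and -0.08 without control replicate 2. In 194 miRNAs (59.1%) the high-dose and control values did not overlap, and 79 of those did not pass the test.

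The most raised miRNA was miR-128-3p, best known as a brain miRNA and also made in liver. It had 73.9, 96.2 and 82.5 CPM at the high dose, against 6.85 and 4.42 CPM in controls. Its log2 fold change of 3.91 ± 0.43 had an adjusted p of 1.98e-08 by edgeR. Every high-dose value lay far above both controls, though groups without overlap were a condition for being named among the largest changes.

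miR-22-5p, the passenger strand of the abundant miR-22-3p, had 279, 231 and 221 CPM at the high dose, against 19.4 and 15.1 CPM in controls. It rose by 3.83 ± 0.30 on the log2 scale (edgeR adjusted p = 1.14e-11). Its guide strand miR-22-3p had 230736, 226566 and 212473 CPM at the high dose, against 147389 and 168107 CPM in controls. The guide rose by 0.50 ± 0.12 (edgeR adjusted p = 0.00125), so the arms moved the same way by very different amounts. miR-22-3p alone held 19.41 to 20.86% of the counts at the high dose, against 15.58 to 16.54% in controls.

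miR-671 had 73.1, 93.3 and 83.3 CPM at the high dose, against 10.7 and 9.31 CPM in controls (log2 fold change 3.05 ± 0.35). miR-322-3p, of an X-linked cluster that includes the miR-15/16 relative miR-322-5p, had 144, 134 and 148 CPM at the high dose, against 17.6 and 17.0 CPM in controls (3.04 ± 0.24). miR-28-3p had 2921, 2923 and 3288 CPM at the high dose, against 515 and 538 CPM in controls (2.53 ± 0.23). These 3 had edgeR adjusted p-values of 3.77e-08, 1.14e-11 and 1.79e-10, and within each group their values were close together.

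miR-191a-5p, an abundant and widely expressed miRNA often used as a reference in PCR assays, had 8688, 8164 and 7966 CPM at the high dose, against 1662 and 1430 CPM in controls. It rose by 2.42 ± 0.22 (edgeR adjusted p = 1.79e-10). miR-423-3p had 341, 525 and 402 CPM at the high dose, against 79.2 and 75.6 CPM in controls (2.45 ± 0.30), and its other arm miR-423-5p had 340, 465 and 397 CPM, against 84.2 and 81.7 CPM (2.27 ± 0.24). Both arms of miR-423, another common PCR reference, therefore rose by similar amounts.

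The rest of the 15 largest rises were miR-222-3p, miR-193b-3p, miR-203b-3p, miR-186-5p, miR-145-5p, miR-365-3p and miR-30d-5p, with log2 fold changes of 2.28 to 1.65. The most abundant of them was miR-30d-5p, which had 22480, 25273 and 21740 CPM at the high dose, against 7039 and 7714 CPM in controls (1.65 ± 0.19, edgeR adjusted p = 2.6e-08). miR-186-5p had 2705, 2690 and 2661 CPM at the high dose, against 789 and 809 CPM in controls (1.75 ± 0.22). No leave-one-out fit ended the call of any of these 15.

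**Figure D1:**
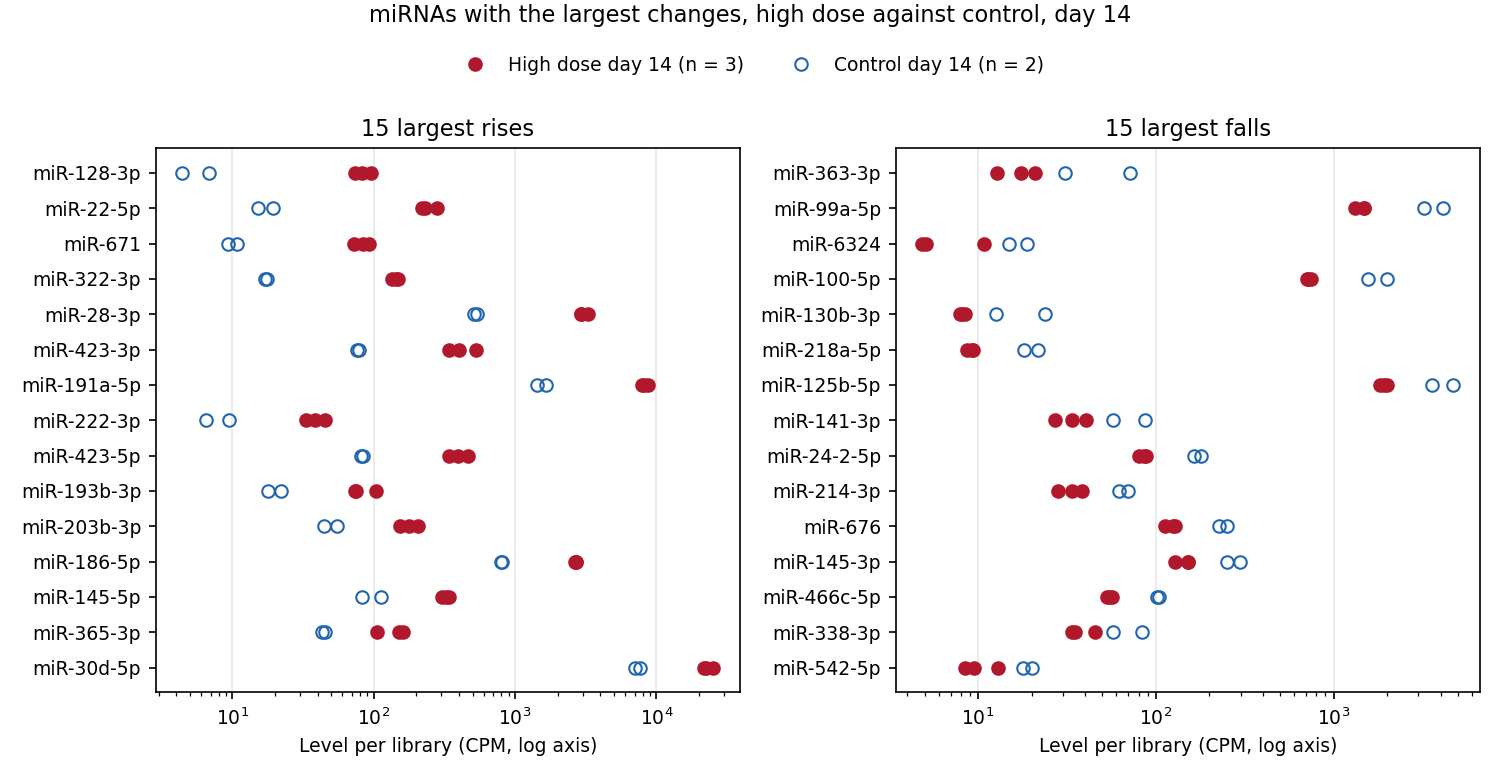
Level of each miRNA in CPM on a log axis, for the 15 largest rises (left) and the 15 largest falls (right). Filled red points are the 3 high-dose libraries of day 14 and open blue points the 2 control libraries. Groups that do not overlap were a condition for being shown. The gaps are wider among the rises, with miR-22-5p at 221 to 279 CPM against 15.1 and 19.4 CPM.

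The falls were smaller. miR-363-3p, of an X-linked relative of the miR-17/92 cluster, had 20.9, 12.9 and 17.4 CPM at the high dose, against 72.0 and 30.7 CPM in controls (-1.57 ± 0.29, edgeR adjusted p = 5.5e-05). The 2 controls differed more from each other than the high-dose libraries did, and without control replicate 1 the log2 fold change was -0.84.

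A firmer group of falls came from the miR-99/100 and miR-125 families, whose hairpins lie in shared clusters with let-7 genes. miR-99a-5p had 1481, 1322 and 1490 CPM at the high dose, against 3231 and 4141 CPM in controls (-1.37 ± 0.23, edgeR adjusted p = 2.56e-05). miR-100-5p had 751, 718 and 712 CPM at the high dose, against 1992 and 1569 CPM in controls (-1.29 ± 0.27). miR-125b-5p had 1835, 1916 and 1992 CPM at the high dose, against 3584 and 4715 CPM in controls (-1.12 ± 0.19).
In all 3 the highest high-dose value was well under the lowest control, though groups without overlap were a condition for being named here. No left-out library ended the call of any of the 3. Their let-7 neighbours did not share the fall at this threshold: let-7c-5p had a log2 fold change of -0.42 ± 0.17 (edgeR adjusted p = 0.0584) and let-7a-5p one of -0.19 ± 0.14 (adjusted p = 0.322). Both let-7 strands also come from hairpins outside these clusters, so their levels do not report on the clusters alone. The 3p arms miR-99a-3p and miR-125b-2-3p rose, as given below. The relatives miR-99b-5p (-0.32 ± 0.19, adjusted p = 0.205) and miR-125a-5p (0.33 ± 0.24, adjusted p = 0.3), also by edgeR, did not pass either.

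Others among the 15 largest falls that no left-out library ended were miR-24-2-5p (-1.02 ± 0.20), miR-214-3p (-0.97 ± 0.24), miR-676 (-0.97 ± 0.21), miR-145-3p (-0.93 ± 0.21) and miR-466c-5p (-0.90 ± 0.23). miR-676 had 112, 125 and 129 CPM at the high dose, against 226 and 251 CPM in controls. miR-214-3p, made by fibroblasts and stellate cells, had 33.8, 38.6 and 28.3 CPM at the high dose, against 70.0 and 62.1 CPM in controls.
The other members rested on single libraries. Without control replicate 1 the calls of miR-130b-3p, miR-218a-5p, miR-141-3p, miR-338-3p and miR-542-5p were lost, with miR-130b-3p at -0.62 instead of -1.14. miR-6324 lost its call without control replicate 2, high-dose replicate 1 or high-dose replicate 3.

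Across seed families, the miR-30 guide strands moved as a block. miR-30 is an abundant hepatocyte family, and all 5 of its guide strands rose, with a median log2 fold change of 0.65 beside 0.03 over all tested and 22.0% of all tested called higher. Their summed level was 95893, 108510 and 97258 CPM at the high dose, against 52102 and 58948 CPM in controls. miR-30a-5p, the most abundant, had 45811, 53163 and 48125 CPM at the high dose, against 29552 and 32928 CPM in controls (0.65 ± 0.11, edgeR adjusted p = 1.09e-05).
The other members rose by 0.87 ± 0.14 (miR-30e-5p), 0.63 ± 0.12 (miR-30c-5p), 0.50 ± 0.12 (miR-30b-5p) and 1.65 (miR-30d-5p, above). All 5 rose under every scaling, filter and left-out library tried. Their passenger arms miR-30a-3p (0.08 ± 0.19), miR-30d-3p (0.21 ± 0.18) and miR-30e-3p (-0.07 ± 0.20) did not pass, nor did miR-30c-1-3p (0.41 ± 0.30). The passenger miR-30c-2-3p rose by 0.47 ± 0.15 (edgeR adjusted p = 0.016), a call kept in 6 of the 14 alternatives and lost without control replicate 1, high-dose replicate 1 or high-dose replicate 2.

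Among the other rising seed groups were miR-221-3p and miR-222-3p, neighbours on the X chromosome that are linked with liver regeneration and fibrosis. miR-222-3p had 33.3, 38.6 and 44.9 CPM at the high dose, against 9.52 and 6.52 CPM in controls (2.28 ± 0.33, edgeR adjusted p = 1.64e-06). miR-221-3p had 108, 131 and 176 CPM at the high dose, against 57.7 and 37.0 CPM in controls (1.55 ± 0.34). The passenger miR-221-5p stood at -0.30 ± 0.60 and did not pass.
miR-103-3p and miR-107-3p, another seed pair, rose by 0.46 ± 0.14 and 0.89 ± 0.16, and miR-193a-3p (0.95 ± 0.24) rose with miR-193b-3p (2.07 ± 0.31). The call of miR-103-3p was lost in 4 of the 5 leave-one-out fits, all but that without high-dose replicate 3, and that of miR-193a-3p without control replicate 1. Outside the naming rule, miR-107-3p and miR-193a-3p are given because of their seeds, after their values were seen.

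The miR-15/16 seed family, known for restraining cell division, fell. Of its 6 members, 5 were lower and none higher, with a median of -0.67 beside 13.4% of all tested called lower. miR-16-5p, the most abundant, had 5899, 5686 and 5390 CPM at the high dose, against 8743 and 11363 CPM in controls (-0.83 ± 0.17, edgeR adjusted p = 0.000253). miR-322-5p (-0.82 ± 0.15), miR-497-5p (-0.78 ± 0.18), miR-15a-5p (-0.55 ± 0.16) and miR-15b-5p (-0.55 ± 0.21) also fell.
The sixth, miR-195-5p, had 575, 447 and 545 CPM at the high dose, against 471 and 894 CPM in controls, which overlapped. The lower calls numbered 3 without control replicate 2 and 4 to 6 under the other settings, and no member was higher under any.

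The miR-23/24/27 clusters, which are active in endothelium and liver, also moved downward. Of 9 strands tested 6 were lower and none higher, beside 13.4% of all tested called lower, with a median of -0.46. miR-27b-3p had 27982, 27811 and 25994 CPM at the high dose, against 35805 and 37550 CPM in controls (-0.43 ± 0.12, edgeR adjusted p = 0.00591). miR-27a-3p (-0.51 ± 0.13), miR-23a-3p (-0.42 ± 0.13), miR-23b-3p (-0.46 ± 0.18) and miR-24-3p (-0.53 ± 0.17) fell by similar amounts, and the lower calls numbered 3 without control replicate 1.

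A shared seed did not fix the direction. Among the 292 tested miRNAs with a matched sequence, 32 seeds were found in at least 2 miRNAs. Of these seeds, 7 had several calls that were all higher, 4 had several that were all lower, and 2 had calls in both directions. Called miRNAs without a matched sequence, such as miR-99a-5p, are left out, so these counts can be too low. The 7 include UAUACAA, whose 2 calls were let-7a-1-3p and let-7c-2-3p. These have the same mature sequence and the same counts in the libraries compared, so they are not separate evidence. With the seed AUUGCAC, miR-92a-3p had 10446, 13004 and 10997 CPM at the high dose, against 5775 and 4946 CPM in controls (1.10 ± 0.20, edgeR adjusted p = 4.35e-05). Its close relative miR-92b-3p had 9.87, 8.29 and 8.90 CPM at the high dose, against 2.08 and 1.86 CPM in controls (2.19 ± 0.37). The third carrier of a call, miR-363-3p, fell.
With the seed CCCUGAG, miR-351-5p had 483, 454 and 516 CPM at the high dose, against 244 and 227 CPM in controls (1.04 ± 0.23), while miR-125b-5p fell. miR-92b-3p and miR-351-5p lie outside the naming rule and are given because of their seeds, after their values were seen.

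In the miR-17/92 clusters, known for promoting cell division, 4 of 17 strands were higher and 2 lower, with a median of -0.07, shares near the 22.0% and 13.4% of all tested. With library size alone 2 were higher and 5 lower. Besides miR-92a-3p, the rises were miR-19a-3p (0.84 ± 0.23), miR-19b-3p (0.49 ± 0.17) and miR-20a-5p (0.52 ± 0.20). Both miR-19b-3p and miR-20a-5p lost the call in 4 of the 5 leave-one-out fits, all but that without high-dose replicate 3. The falls were miR-363-3p and miR-18a-3p, and miR-18a-3p had 0, 2 and 0 counts at the high dose against 8 and 8 counts in controls, too few for a fold.

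**Figure D2:**
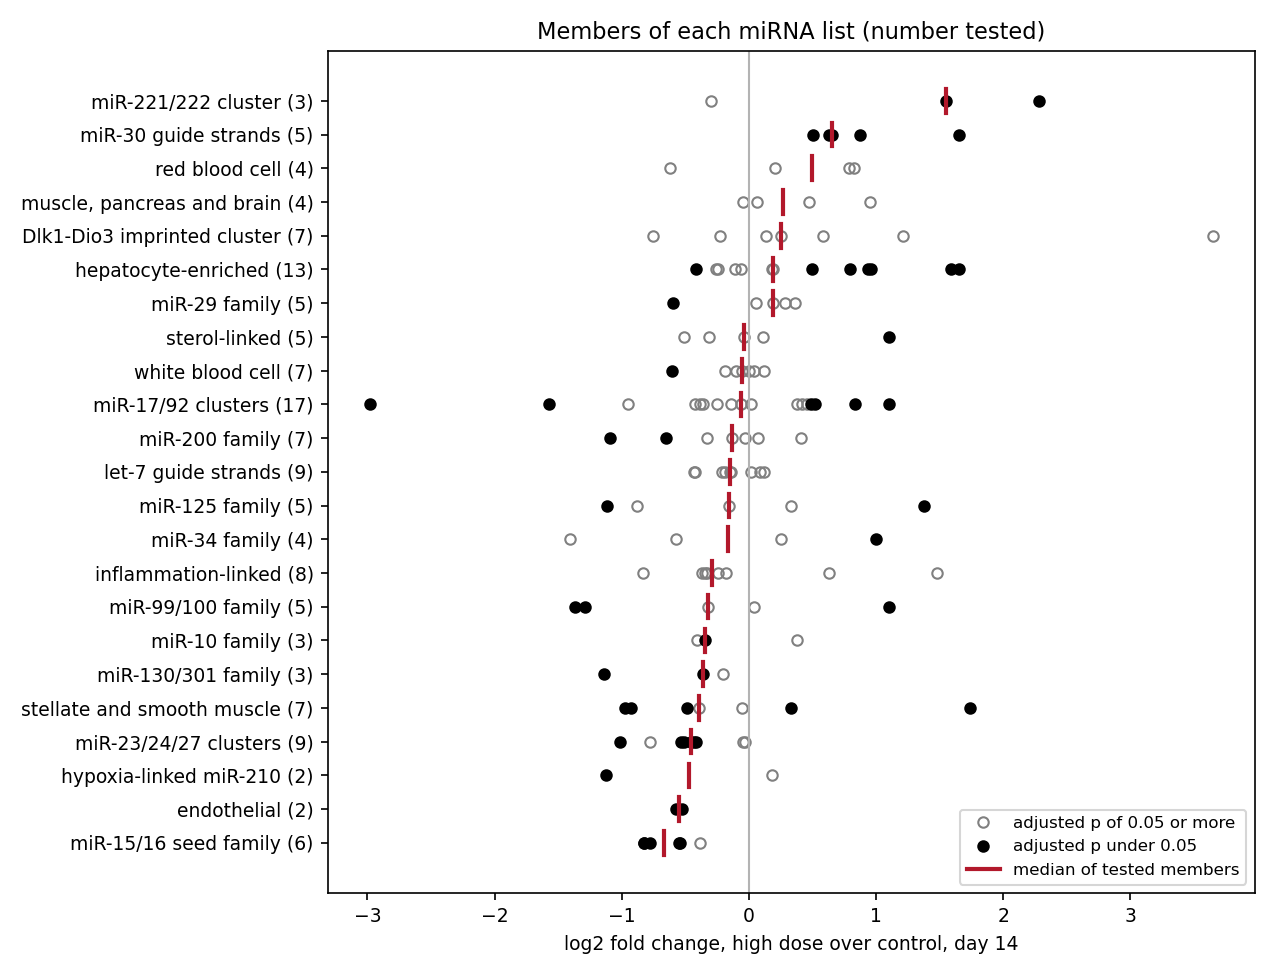
Log2 fold change of each tested member of 23 miRNA lists, high dose over control on day 14, with the number tested in brackets. Filled points passed an adjusted p of 0.05, open points did not, and the red mark is the list's median, which is 0.65 for the miR-30 guide strands and -0.67 for the miR-15/16 family.

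The hepatocyte-enriched list had 6 of its 13 tested members higher and 1 lower, beside 22.0% and 13.4% of all tested, with a median of 0.19. With library size alone it had 5 higher and 4 lower. miR-122-5p, which promotes hepatocyte lipid synthesis and is used as a marker of liver injury when found in blood, had 28812, 32183 and 27180 CPM at the high dose, against 33889 and 36548 CPM in controls. Its log2 fold change of -0.26 ± 0.16 did not pass (edgeR adjusted p = 0.218), although the groups did not overlap and with library size alone it was -0.45 and passed.
miR-192-5p was at -0.06 ± 0.11 (edgeR adjusted p = 0.702), and at -0.25, past the threshold, with library size alone.

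The hepatocyte strands that rose were both arms of miR-148a and of miR-802, miR-365-3p and miR-194-3p. The guide miR-148a-3p rose by 0.50 ± 0.16, and its call was kept in 9 of the 14 alternatives. Among the losses were library size alone, no low-count filter, the stricter filter, and the fit without high-dose replicate 1, where it stood at 0.37. miR-148a-5p, a passenger strand, had 4442, 4399 and 3969 CPM at the high dose, against 1562 and 1277 CPM in controls (1.59 ± 0.24, edgeR adjusted p = 3.89e-06). miR-365-3p had 161, 150 and 105 CPM at the high dose, against 42.9 and 45.1 CPM in controls (1.66 ± 0.32). miR-802-5p, a regulator of glucose metabolism in mouse liver, had 1873, 1761 and 1572 CPM at the high dose, against 740 and 1042 CPM in controls (0.96 ± 0.29).
The calls of both miR-802 arms were lost without control replicate 1, high-dose replicate 1 or high-dose replicate 2. miR-194-3p rose by 0.94 ± 0.24 and its guide miR-194-5p fell by 0.42 on the log2 scale, and both calls were lost without control replicate 2.

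Among miRNAs linked with injury, miR-34a-5p, a target of p53, had 17.8, 25.7 and 31.1 CPM at the high dose, against 14.9 and 10.0 CPM in controls (0.996 ± 0.371, edgeR adjusted p = 0.0373). The groups did not overlap, yet the call was lost with library size alone and without control replicate 2, high-dose replicate 2 or high-dose replicate 3. miR-331-3p had 112, 46.4 and 71.6 CPM at the high dose, against 34.2 and 41.2 CPM in controls (1.03 ± 0.31, adjusted p = 0.011 by edgeR), and without high-dose replicate 1 it stood at 0.56 and did not pass. High-dose replicate 1 was the highest of the 5 libraries for this miRNA.
The inflammation-linked list had no member of 8 past the threshold in either direction, beside 35.4% of all tested. Its leading member miR-21-5p, which is induced in many injured tissues, had 56282, 80532 and 55028 CPM at the high dose, against 67816 and 77438 CPM in controls (-0.18 ± 0.20, edgeR adjusted p = 0.534). The groups overlapped, and the interval allows changes in both directions.

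The miRNAs of other liver cell types moved in part. Both arms of the endothelial miR-126a were lower: miR-126a-5p had 17567, 16082 and 15863 CPM at the high dose, against 22777 and 24839 CPM in controls (-0.53 ± 0.11, edgeR adjusted p = 0.000193). miR-126a-3p stood at -0.57 ± 0.17 and lost its call without control replicate 2. The summed level of both was 20698 to 22701 CPM at the high dose, against 29203 and 32940 CPM in controls, and its part in the other falls was not tested.
For stellate and smooth muscle cells, 2 of 7 strands were higher and 3 lower, beside 22.0% and 13.4% of all tested. miR-143-3p, the most abundant, stood at 0.33 ± 0.12 and passed only narrowly (edgeR adjusted p = 0.0384), and it did not pass with DESeq2's size factors or with library size alone, and it stood at 0.18 without high-dose replicate 2. The list's summed level was 53175 to 60715 CPM at the high dose, against 48327 and 42288 CPM in controls.

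Among blood cell miRNAs, the white cell list lay at the control level in sum and the red cell list above it. Of the white blood cell list 1 of 7 was lower, a share near the 13.4% of all tested called lower. That strand, miR-142-3p, had 236, 184 and 215 CPM at the high dose, against 405 and 241 CPM in controls (-0.61 ± 0.24, edgeR adjusted p = 0.0436). Without control replicate 1 it stood at -0.19. The list's summed level was 2274 to 2400 CPM at the high dose, inside the 1894 and 3110 CPM of the controls. The 4 red blood cell miRNAs summed to 2741 to 3428 CPM at the high dose, against 2149 and 1781 CPM in controls, which did not overlap. Their median log2 fold change was 0.50, and none passed, beside 35.4% of all tested. With only the groups compared in the fit, 2 of these red cell miRNAs were higher and 1 lower. Their part in the other changes was not tested.

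In the remaining lists, the let-7 guide strands had no call among 9 (median -0.15), beside 35.4% of all tested. They had 2 lower with DESeq2's size factors and 5 lower with library size alone. The miR-29 family had 1 of 5 lower (miR-29b-3p, -0.60 ± 0.19), and the miR-200 family of epithelium 2 of 7 (miR-141-3p and miR-200a-3p, -0.65 ± 0.22), beside 13.4% of all tested called lower. The call of miR-29b-3p was lost without control replicate 2 or high-dose replicate 3, and with all 8 vehicle libraries as control, when the family had 2 higher and 0 lower. The call of miR-200a-3p was lost without control replicate 1 or high-dose replicate 3. miR-10a-5p, an abundant strand, stood at -0.35 ± 0.14 (edgeR adjusted p = 0.0473), and miR-130a-3p fell by 0.36 on the log2 scale.
The calls of miR-10a-5p and miR-130a-3p were lost without control replicate 2 or high-dose replicate 3. Of the sterol-linked list, chosen because the drug's class acts on sterol synthesis, only miR-182 of 5 tested passed, beside 22.0% higher over all tested. It had 1571, 2403 and 2061 CPM at the high dose, against 952 and 922 CPM in controls (1.10 ± 0.24). miR-33-5p, which lies inside the Srebf2 gene of sterol control, was at -0.32 ± 0.19 (edgeR adjusted p = 0.218). With library size alone both miR-33 strands were also called lower.
miR-210-5p was lower (-1.12 ± 0.32), at -0.51 and not called without control replicate 2, and the guide miR-210-3p, known from hypoxia, was not called (0.18 ± 0.16). No strand passed in the list of muscle, pancreas and brain miRNAs (4 tested) or in the Dlk1-Dio3 imprinted cluster (7 tested), beside 35.4% of all tested.

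The arms of a hairpin often parted. Among 119 pairs of tested arms from 110 hairpins, both arms passed in 19, a single arm in 47 and neither in 53. Of the 19, both rose in 9, both fell in 2 and the arms moved in opposite directions in 8. In 7 of these 8 the scarcer arm rose and the more abundant arm fell. Over all pairs, 30 of the more abundant arms were higher and 20 lower, against 24 and 11 of the scarcer arms.

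The log2 ratio of 5p over 3p CPM, with 0.5 CPM added to each, shows this within a library. For miR-322 it was 1.22, 1.12 and 1.22 at the high dose, against 4.99 and 5.04 in controls, since the 3p arm rose while the 5p arm fell. For miR-99a it was 3.41, 3.20 and 3.26 at the high dose, against 5.61 and 5.86 in controls. These ratios do not depend on scaling between libraries. Neither pair of groups overlapped, which follows from taking pairs whose arms each parted the groups in opposite directions.
For miR-125b the ratio of miR-125b-5p over miR-125b-2-3p was 2.91, 2.86 and 3.15 at the high dose, against 5.24 and 5.65 in controls. Its 3p arm had 244, 264 and 223 CPM at the high dose, against 94.4 and 93.5 CPM in controls. The exception among the 8 was miR-145, a smooth muscle miRNA, for which the ratio was 1.16, 1.08 and 1.24 at the high dose, against -1.17 and -1.85 in controls.
miR-145-5p had 340, 324 and 302 CPM at the high dose, against 112 and 82.2 CPM in controls (1.74 ± 0.27, edgeR adjusted p = 8.27e-06). miR-145-3p had 152, 153 and 128 CPM at the high dose, against 251 and 297 CPM in controls. So the 5p arm was the more abundant at the high dose and the 3p arm in controls. The more abundant arm differed between the groups in every library for 4 of the 119 pairs, of miR-145, miR-28, miR-3558 and miR-423, and miR-3558 is named after its values were seen. For miR-28 the log2 ratio was -2.07, -2.06 and -2.16 at the high dose, against 0.45 and 0.47 in controls, while for miR-423 it was near 0 in all 5 libraries.

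The other opposite pairs were miR-194, above, and miR-15b, miR-151 and miR-872, which lie outside the naming rule and are named after their values were seen. For miR-15b the ratio was 2.42, 2.46 and 2.44 at the high dose, against 4.02 and 4.05 in controls. For miR-872 it was 0.23, 0.05 and 0.35 at the high dose, against 1.69 and 1.94 in controls. The 5p calls of these 3 hairpins were lost without control replicate 1, control replicate 2 or high-dose replicate 3. The rise of miR-151-3p (0.43 ± 0.17) was lost in 4 of the 5 leave-one-out fits and stood at 0.26 without control replicate 2, and that of miR-15b-3p (1.11 ± 0.31) was lost without control replicate 2.
In other hairpins 1 arm rose while its partner did not pass. let-7a-1-3p and let-7c-2-3p, which have the same mature sequence and the same counts in these 5 libraries, had 151, 165 and 145 CPM at the high dose, against 61.0 and 59.3 CPM in controls (1.35 ± 0.23, edgeR adjusted p = 2.58e-05). miR-28-5p, the partner of the strongly raised miR-28-3p, had 695, 700 and 734 CPM at the high dose, against 705 and 743 CPM in controls (-0.03 ± 0.13). miR-191a-3p likewise did not rise with its partner and stood at -0.41 ± 0.20 (edgeR adjusted p = 0.11).

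**Figure D3:**
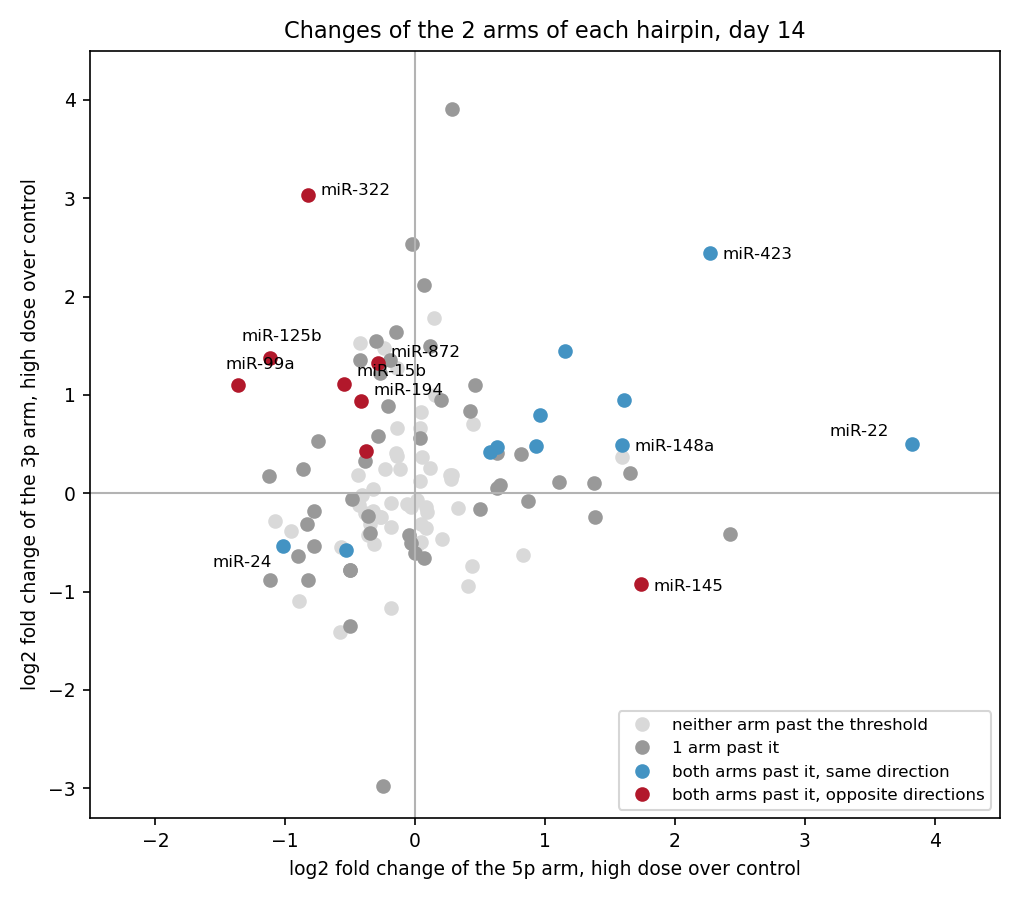
Log2 fold change of the 3p arm against that of the 5p arm, high dose over control on day 14, for 119 pairs of arms. Red points are the 8 pairs whose arms both passed the threshold in opposite directions, blue points the 11 that both passed in the same direction, and all red pairs but miR-145 lie where the 3p arm rose and the 5p arm fell.

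Base composition differed little between the calls. Among miRNAs with a sequence, the median GC content was 47.8% for the higher, 45.5% for the lower and 47.6% for those not called, and the median length was 22 bases in each. Across 292 miRNAs Spearman's rho of the log2 fold change with GC content was -0.06 and with length 0.11, and miRNAs are not independent replicates. Arm names were counted only for strands with a sequence that are named 5p or 3p. Of those called higher, 20 were 5p and 40 were 3p, and of those called lower 17 were 5p and 19 were 3p. Among those not called, 97 were 5p and 82 were 3p. The 40 include both let-7a-1-3p and let-7c-2-3p, which have the same sequence.

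The levels on day 14 did not climb evenly with dose. For miR-22-5p the means were 17.2 CPM in controls, 16.5 at 10 mg/kg, 194 at 30 mg/kg and 244 at 100 mg/kg. For miR-30d-5p they were 7377 CPM in controls, 7421 at 10 mg/kg, 19722 at 30 mg/kg and 23164 at 100 mg/kg. The leading rises thus stepped between 10 and 30 mg/kg, where the library sets above also part. On day 7, by contrast, miR-22-5p had 155, 131 and 162 CPM at 10 mg/kg, against 11.9, 4.68 and 11.1 CPM in the controls of day 7. On days 3 and 14 at 10 mg/kg it lay between 11.8 and 18.6 CPM.

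Between the high and the middle dose of day 14, which lie in the same library set, 3 of the 328 miRNAs passed (0.915%) in edgeR's test, and 49 had an unadjusted p under 0.05. Middle-dose replicates 2 and 3 are sums of repeat runs, with 9665416 and 9407702 counts, beside 3286667 in middle-dose replicate 1. Whether this played a part was not tested. All 3 miRNAs that passed were lower at the high dose. miR-125b-5p had 1835, 1916 and 1992 CPM at the high dose, against 3525, 4018 and 2930 CPM at the middle dose (-0.87 ± 0.17, edgeR adjusted p = 0.00657). miR-99a-5p had 1481, 1322 and 1490 CPM at the high dose, against 2959, 3230 and 2243 CPM at the middle dose (-0.97 ± 0.21, adjusted p = 0.00865).
miR-145-3p had 152, 153 and 128 CPM at the high dose, against 276, 303 and 221 CPM at the middle dose (-0.89 ± 0.19, edgeR adjusted p = 0.00719). In each, all high-dose values lay under all middle-dose values. From control through 10 and 30 to 100 mg/kg, the mean levels were 4149, 3475, 3491 and 1915 CPM for miR-125b-5p and 3686, 2765, 2810 and 1431 CPM for miR-99a-5p, so the step lay at the highest dose. miR-100-5p, in the same direction, did not pass (-0.92 ± 0.25, edgeR adjusted p = 0.0584).
The count depended on single libraries: no miRNA passed without middle-dose replicate 2 or without high-dose replicate 1, 1 without high-dose replicate 3, and DESeq2 called 17. Over the leave-one-out fits the log2 fold change of miR-125b-5p stayed between -0.98 and -0.79. For miR-99a-5p it stayed between -1.11 and -0.90, and that call was kept only without middle-dose replicate 3. For miR-145-3p it stayed between -1.01 and -0.81, and that call was also lost without high-dose replicate 3.
The leading rises of day 14 did not pass between these doses. miR-22-5p was at 0.33 ± 0.22 (edgeR adjusted p = 0.533), miR-128-3p at 0.05 ± 0.30, miR-28-3p at -0.03 ± 0.18 and miR-191a-5p at -0.06 ± 0.17.

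**Figure D4:**
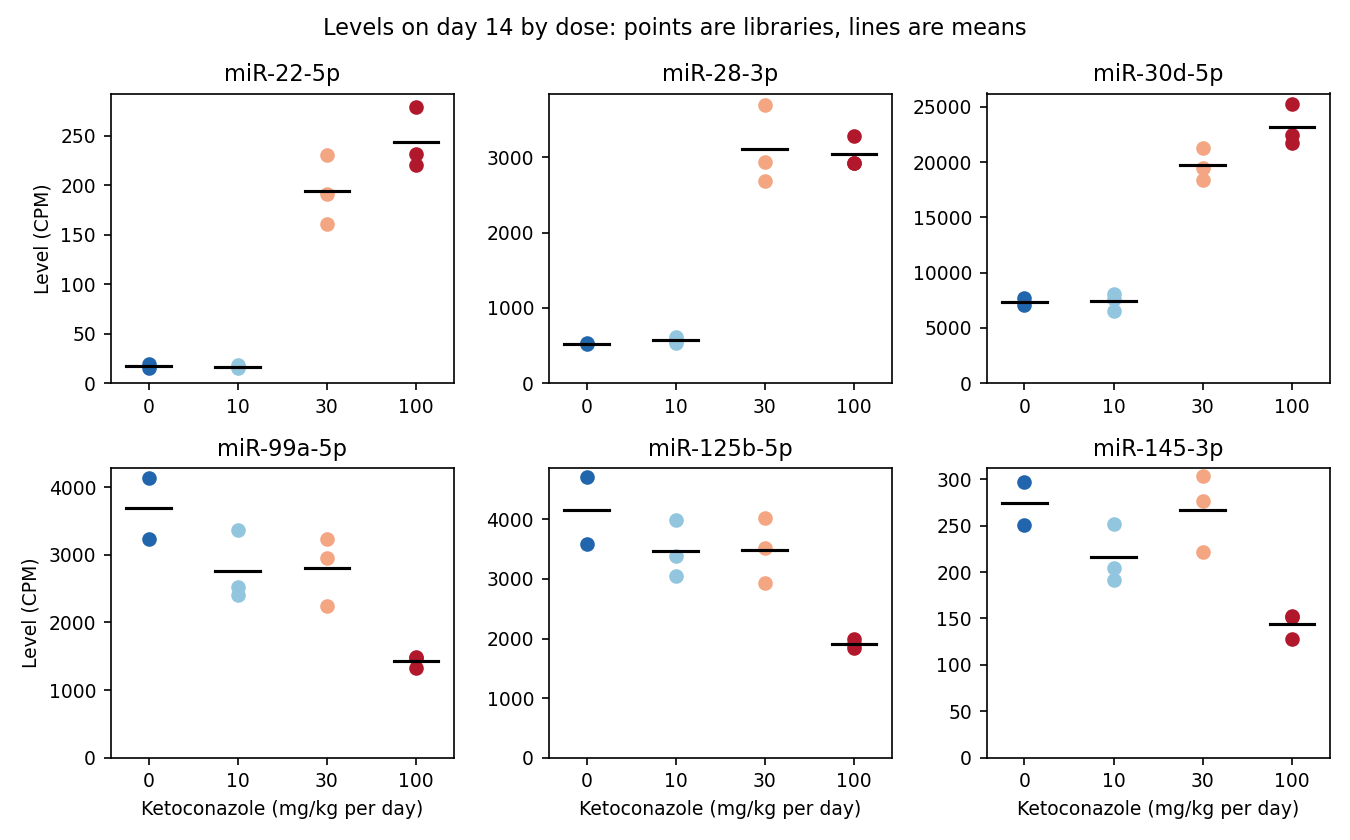
Level in CPM on day 14 by daily dose, 0 being the vehicle, with a point for each library and a line at the mean. The upper row steps up between 10 and 30 mg/kg, while in the lower row the 3 libraries at 100 mg/kg lie under all others, with miR-125b-5p at 1835 to 1992 CPM.

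The same dose was compared with its own controls on the other days. Calls made up 35.1% of those tested on day 3 and 51.8% on day 7. Of the 72 rises of day 14, 55 (76.4%) were also called higher on day 3, which is 88.7% of the 62 rises of that day, and 61 (84.7%) on day 7, which is 77.2% of its 79. Of the 44 falls, 31 (70.5%) were called lower on day 3, 58.5% of its 53, and 34 (77.3%) on day 7, 37.4% of its 91. No miRNA was called in opposite directions, and 79 passed in the same direction on all 3 days. The 3 days use separate livers and controls, but their libraries fall into the same sets described above.

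By name, miR-128-3p changed by 3.91 ± 0.43 on day 14, beside 3.93 ± 0.36 on day 3 and 3.94 ± 0.37 on day 7. miR-22-5p changed by 3.83 ± 0.30, beside 4.21 ± 0.26 and 4.52 ± 0.27, and miR-191a-5p by 2.42 ± 0.22, beside 2.42 ± 0.18 and 2.69 ± 0.19. Among the falls, miR-125b-5p stood at -1.12 ± 0.19 on day 14, beside -0.95 ± 0.17 and -1.17 ± 0.17. For miR-16-5p the day 14 value was -0.83 ± 0.17, beside -0.79 ± 0.15 and -1.49 ± 0.16.

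Called on day 14 alone were 14 miRNAs, and 21 were called on days 3 and 7 in 1 direction but not on day 14. The firmest of the 14 was miR-30c-5p, at 0.63 ± 0.12 on day 14, beside 0.17 ± 0.11 on day 3 and 0.21 ± 0.11 on day 7. miR-145-3p was at -0.93 ± 0.21 on day 14, beside -0.38 ± 0.19 and -0.05 ± 0.19. miR-199a-5p, a stellate cell strand, was at -0.49 ± 0.19 on day 14, beside 0.05 ± 0.17 and 0.40 ± 0.17, and its call on day 14 was lost in 4 of the 5 leave-one-out fits.
The difference between days was tested directly as an interaction, and none of the 328 (0.0%) passed against day 3 or (0.0%) against day 7 in edgeR. At an unadjusted p under 0.05 there were 24 against day 3 and 36 against day 7, and DESeq2 called 0 in both, with 22 and 32 at an unadjusted p under 0.05. For miR-30c-5p the effect of day 14 exceeded that of day 3 by 0.47 ± 0.16 (edgeR adjusted p = 0.565), and for miR-199a-5p it was lower than that of day 7 by -0.89 ± 0.26 (adjusted p = 0.274). These calls of day 14 alone are therefore not shown to be particular to that day.
Without replicate 1 of the day 7 controls, 5 passed against day 7, with 2 higher on day 14 (let-7i-5p and miR-122-3p) and 3 lower (miR-145-5p, miR-148a-5p and miR-26b-5p). These 5 are named after their values were seen.

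**Figure D5:**
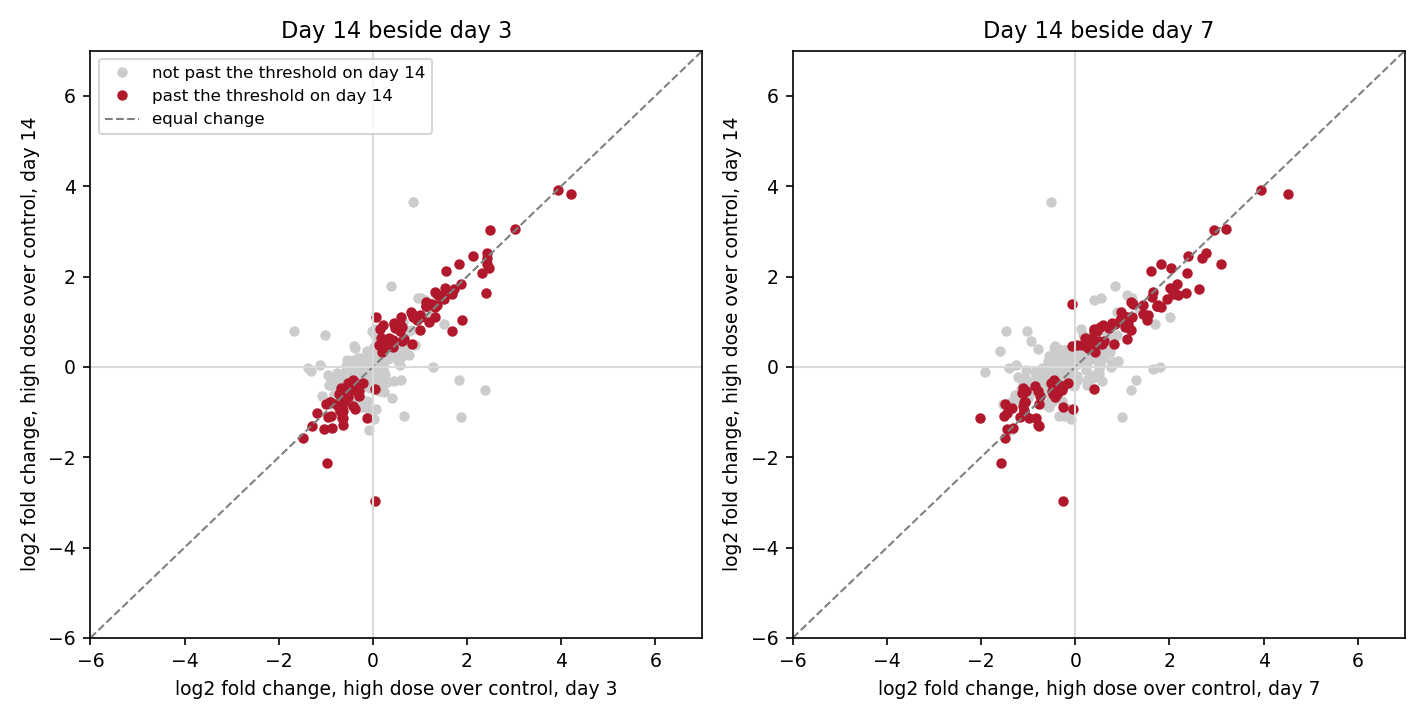
Log2 fold change of each miRNA, high dose over control, on day 14 against day 3 (left) and day 7 (right). Red points passed an adjusted p of 0.05 on day 14, the dashed line marks equal change, most red points lie near it, and miR-871-3p lies beyond the axis of day 3.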

How the data were processed

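Small RNA libraries were made from total liver RNA with the Illumina TruSeq Small RNA kit, per the labels' protocols. The authors deposited raw read counts for 763 miRNAs in 37 columns. The repeat runs of 2 samples, middle-dose replicates 2 and 3 of day 14, were summed to give 35 samples. The genome was rn6, per the submitters' processing notes, while for the aligner and the counter nothing is given in the sources used here. Total counts of the 5 libraries were 2665943 to 4367572, so intervals at low counts are wide.

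A filter by group (count of at least 10 in enough libraries, total 15) left 328 miRNAs, which held 99.995% of the counts. edgeR 4.0.16 in R 4.3.3 was fitted to all 35 libraries in 12 group means (TMM, robust quasi-likelihood, 23 residual degrees of freedom). The SE was taken as the absolute log2 fold change over the square root of the test's F statistic. Alternatives were DESeq2 1.42.0, other scalings, filters and sample sets, and each replicate left out. On simulated counts for high dose against control on day 14, with 200 of 328 miRNAs changed, the test found 51% of those set to 1.5-fold and 77% of those set to 2-fold, and made 1 call among 128 unchanged.

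The miRNAs named were the 15 largest changes each way with a mean of 10 CPM and no overlap, the 10 most abundant, 5 miRNAs of interest (miR-331-3p, miR-21-5p, miR-34a-5p, miR-192-5p, miR-122-5p), up to 4 per list, up to 5 each way per difference, and the other arms. The members and lists were chosen with earlier results of these data known. Replicates exceeded counting noise. Rows that share near-identical sequences can split reads.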

Additional observations from a re-analysis of the deposited data

How the results depend on the processing

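For high dose against control on day 14, 59 of the 116 calls (45 higher, 14 lower) were kept under all 14 alternatives. Higher and lower calls numbered 65 and 57 with DESeq2's size factors, 57 and 81 with library size alone, 57 and 39 with no filter, 58 and 59 with a stricter filter, and 67 and 58 in DESeq2. They numbered 69 and 43 with the groups compared alone, 66 and 42 with the libraries of day 14 alone, and 88 and 84 with all 8 vehicle libraries as control. The shift to falls with library size alone goes with the median of all miRNAs at -0.15; the cause of the others was not tested. Leaving out 1 library at a time gave 84 to 107 calls, 55 to 69 higher and 24 to 50 lower. Of the 71 named miRNAs that were called, 43 kept the call in every alternative and 28 lost it in at least 1, 37 of the 77 not called passed in at least 1, and 0 reversed direction.

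The difference between day 14 and day 3 gave 0 calls under every alternative. That between day 14 and day 7 gave 0 except without replicate 1 of the day 7 controls (5 calls, 2 higher and 3 lower), so leaving out 1 library gave 0 to 5 calls. High against middle dose gave 3 lower. It gave 3 lower and 1 higher with library size alone, 7 lower with the stricter filter, 5 lower with the groups or with day 14 alone, and 11 lower and 6 higher (17 calls) in DESeq2. Without 1 library it gave 0 to 5 calls, all lower, with 0 without middle-dose replicate 2 or high-dose replicate 1.

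Same-numbered replicates did not deviate together: the correlation of the high-dose and control deviations was 0.196 for replicate 1 and -0.195 for replicate 2, and with 2 controls these can only be of equal size per library. With the replicate number as a block within day, 107 miRNAs passed (68 higher, 39 lower), 104 of them among the 116, and the differences between days and the high against middle dose gave 0, 0 and 3. With 2 controls, each fit without 1 of them assumes that the lone control varies like the other groups. Low counts limit scarce strands such as miR-18a-3p.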
